A study of Mus musculus with 12 samples.

Results

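Libraries labelled DKO were set against libraries labelled Ing1-KO, 3 of each and 6 of the 12 in the series, chosen by the genotype in their titles; every gene was used. Both groups lack Ing1 by label, and those labelled DKO also lack Gadd45a, so the comparison addresses what a Gadd45a lesion adds to cells without Ing1. All are mouse embryonic fibroblasts (MEFs) of C57BL/6N background, taken from male E15.5 embryos and passaged 4 times, and poly(A) RNA was sequenced on day 6 of differentiation into adipocytes. Confluent cultures had been given insulin (10 µg/ml), rosiglitazone (2 µM), dexamethasone (1 µM) and the phosphodiesterase inhibitor IBMX (0.5 mM). The libraries labelled Gadd45a-KO and WT, 3 of each, were treated alike and give the same lesion without the loss of Ing1. Both lesions are present from the germ line, in all cells of a culture. Whether replicates are separate embryos or separate cultures is not given in the sources used here, so p-values refer to the spread among these libraries, which may be technical.

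GADD45A is a stress-induced nuclear protein that takes part in DNA repair, cell cycle arrest and active DNA demethylation. ING1 binds methylated histone H3 and belongs to a histone deacetylase complex. In adipogenesis a hormonal cocktail drives confluent fibroblasts through PPARG and the C/EBP factors towards cells that store triglyceride, and proliferation ends as they differentiate.

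Gene reads ranged between 42891627 and 51393433 in the 6 libraries, and 16163 genes were tested. Of these, 1932 passed edgeR's quasi-likelihood test at an adjusted p under 0.05, 12% of all tested; 959 (5.93%) were higher and 973 (6.02%) lower in the libraries labelled DKO. Most changes were small, with a median log2 fold change of 0.30 among the higher and -0.47 among the lower genes. A fold of at least 2 left 82 higher (0.507%) and 251 lower (1.55%). Upper-quartile scaling left 717 higher and 1170 lower, or 38% higher against 49.6% with TMM factors, and no called gene changed direction under it or under RLE factors. In 1885 of the 1932 called genes (97.6%) the groups did not overlap, beside 34.2% of all tested genes. The libraries do not carry equal weight. Leaving out DKO replicate 1 left 2 genes higher and 4 lower, and leaving out Ing1-KO replicate 2 left 3 and 9, as set out further on. Across all tested genes Ing1-KO replicate 3 lay closest to the libraries labelled DKO, at root mean square log2 distances of 0.404, 0.414 and 0.362 from replicates 1, 2 and 3, whereas the distances within Ing1-KO reached 0.542.

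The targeted genes check the labels. Levels are in CPM, reads scaled to the library's total over tested genes times its TMM factor. Gadd45a (ENSMUSG00000036390, chromosome 6) stood at 140, 142 and 138 CPM in the libraries labelled DKO, against 13.4, 15 and 18.4 CPM in Ing1-KO. It was thus higher in every library labelled as lacking it, the log2 fold change being 3.16 ± 0.107 (SE, adjusted p = 2.02e-07), the opposite of what the label says. In Gadd45a-KO against WT its log2 fold change was 3.18 (edgeR adjusted p = 1.93e-07), in the same direction. Counts per gene do not show whether the reads come from an intact transcript, and each direction given here rests on the labels. E230016M11Rik (ENSMUSG00000087231), which overlaps Gadd45a in the annotation, was at 0.0704, 0.110 and 0.0619 CPM in the libraries labelled DKO, against 1.04, 1.30 and 1.37 CPM in Ing1-KO. Its log2 fold change was -3.89 (adjusted p = 0.000136, SE 0.274), and reads where these genes overlap cannot be assigned to either with certainty. Ing1 (ENSMUSG00000045969, chromosome 8) was low in both groups, at 0.916, 1.15 and 0.681 CPM in the libraries labelled DKO and 1.00, 1.07 and 1.60 CPM in Ing1-KO (adjusted p = 0.17). No Ing1 level from the groups with Ing1 is given here, so these values alone do not show its loss. The relatives Gadd45b and Gadd45g had log2 fold changes of 0.02 each, and Ing2 0.15, none past the test.

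Genes of cell division were higher in the libraries labelled DKO. Of 32 tested genes of mitosis 18 rose and none fell, or 56.2% called against 12% of all genes, with a median log2 fold change of 0.41; all 32 were positive, and in 30 every DKO library lay above every Ing1-KO library, a separation that 17.4% of all tested genes showed. Of 34 tested genes of DNA replication 13 rose and none fell (38.2%), with a median of 0.27, 33 positive and 24 so separated. The shifts were modest and uniform: no mitosis gene exceeded a log2 fold change of 0.52, and none was below 0.24.

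Promoters of the 3 called genes of these lists with the smallest adjusted p and an entry in the promoter table are shown because the genes moved together. Each runs 5′ to 3′ in the gene's own direction over 250 bases before and 50 after the annotated start, as RefSeq gives it for build GRCm38.p6. The genes are Rrm1, the large subunit of ribonucleotide reductase (chr7:102441445-102441744, plus strand), Pola1, the catalytic subunit of the polymerase that primes replication (chrX:93632106-93632405, minus strand), and Kif23, a kinesin of cytokinesis (chr9:61946750-61947049, minus strand). Capitals mark the words searched on both strands, which are CCAAT; the CHR-like words TTTGAA and TTTAAA; and the E2F-like words TTTCCCGC, TTTCGCGC, TTTGCCGC and TTTGGCGC.
Rrm1: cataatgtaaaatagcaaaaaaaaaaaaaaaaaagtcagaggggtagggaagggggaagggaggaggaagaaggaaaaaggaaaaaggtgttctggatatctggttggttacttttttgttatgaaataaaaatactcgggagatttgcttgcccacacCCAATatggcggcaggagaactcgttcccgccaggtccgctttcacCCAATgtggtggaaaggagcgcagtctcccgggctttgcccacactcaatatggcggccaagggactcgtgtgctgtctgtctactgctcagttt
Pola1: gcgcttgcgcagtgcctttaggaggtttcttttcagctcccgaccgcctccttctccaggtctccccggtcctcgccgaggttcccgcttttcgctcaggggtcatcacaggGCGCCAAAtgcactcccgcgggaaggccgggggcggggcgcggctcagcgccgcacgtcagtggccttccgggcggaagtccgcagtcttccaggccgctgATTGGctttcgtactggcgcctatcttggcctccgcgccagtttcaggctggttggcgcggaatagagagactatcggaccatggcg
Kif23: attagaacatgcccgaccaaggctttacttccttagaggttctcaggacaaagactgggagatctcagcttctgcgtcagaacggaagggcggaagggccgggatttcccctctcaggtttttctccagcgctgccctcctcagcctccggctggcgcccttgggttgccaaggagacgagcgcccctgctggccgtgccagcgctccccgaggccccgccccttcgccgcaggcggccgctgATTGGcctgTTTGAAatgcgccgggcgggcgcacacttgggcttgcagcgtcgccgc
Rrm1 held CCAAT at positions -91 and -45 from the annotated start. Pola1 held an E2F-like word at -138 and CCAAT at -37, both on the reverse strand, and Kif23 a CHR-like word at 3 and CCAAT on the reverse strand at -7. CHR-like words were in 22 of the 27 mitosis promoters listed (81.5%), in 7 of 28 replication promoters (25%), in 27.8% of all 27025 promoters and in 19.4% of the 11486 promoters of tested genes. E2F-like words were in 2 of 27 mitosis promoters (7.41%), 10 of 28 replication promoters (35.7%), 2.32% of all and 3.91% of those of tested genes. CCAAT was in 74.1%, 60.7%, 37.9% and 38.3% of these. The mitosis and replication lists thus differed in the words their promoters held, whereas their transcripts moved the same way. A match of letters is not a bound site.

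Mki67, the antigen that marks cycling cells, was at 233, 241 and 275 CPM in the libraries labelled DKO, against 150, 175 and 197 CPM in Ing1-KO. The groups did not overlap, and the log2 fold change was 0.52 ± 0.140 (SE, adjusted p = 0.0415). Kif23 was at 28.4, 30.6 and 30.8 CPM in the libraries labelled DKO, against 19.1, 23.1 and 23.4 CPM in Ing1-KO (0.45, adjusted p = 0.0245). Nuf2, a kinetochore protein, Anln, the contractile ring scaffold anillin, and Ccnb1, the mitotic cyclin B1, rose by 0.52, 0.46 and 0.43 (adjusted p = 0.0254, 0.0254 and 0.028), and so did Top2a, the topoisomerase of mitotic chromosomes, by 0.45 (adjusted p = 0.0282). In these genes too every library labelled DKO lay above every Ing1-KO library, and the groups were apart in 97.6% of all called genes.

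Among replication genes Rrm1 was at 184, 190 and 176 CPM in the libraries labelled DKO, against 140, 156 and 157 CPM in Ing1-KO. Its log2 fold change was 0.28 ± 0.0557 (SE, adjusted p = 0.0202), with no overlap. Mcm4, part of the replicative helicase, was at 58.9, 59.7 and 61.2 CPM in the libraries labelled DKO, against 45.2, 48.4 and 50.1 CPM in Ing1-KO (0.32, adjusted p = 0.014). Pola1 and Ccne2, the S-phase cyclin E2, rose by 0.36 and 0.35 (adjusted p = 0.0224 and 0.0236). Rrm2, the partner of Rrm1, rose by 0.25 (adjusted p = 0.028).

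Inhibitors of the cell cycle were lower in part. Cdkn2a, whose products p16 and ARF hold cells in arrest, was at 37.5, 36.3 and 39.0 CPM in the libraries labelled DKO, against 55.4, 62.0 and 57.7 CPM in Ing1-KO. Its groups were far apart and tight, and the log2 fold change was -0.64 (adjusted p = 0.00551, SE 0.0733). Its neighbour Cdkn2b, which encodes p15, was at 46.6, 43.2 and 41.7 CPM in the libraries labelled DKO, against 59.9, 60.7 and 52.0 CPM in Ing1-KO (-0.39, adjusted p = 0.0213). For Cdkn2a the mean was 39.8 CPM in Gadd45a-KO and 40.3 CPM in WT, near the libraries labelled DKO. Of the other inhibitors, Cdkn1a (p21) was at 459, 474 and 407 CPM in the libraries labelled DKO and 468, 505 and 535 CPM in Ing1-KO, with overlap (-0.17, adjusted p = 0.106), and Trp53, which encodes p53, was at -0.03 (adjusted p = 0.722). In the list of 17 inhibitors and pocket proteins (17.6% called) Rbl1, which encodes p107, rose by 0.31 (adjusted p = 0.0408), the only rise beside the 2 falls. Among 26 p53 target genes Perp and Phlda3 fell (-1.06 and -0.39), and Ckap2 rose by 0.35, a share of 11.5% and close to that of all genes.

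The mean of the mitosis list spanned 4.97 to 5.08 log2 CPM over the libraries labelled DKO and 4.45 to 4.75 over Ing1-KO; it spanned 4.77 to 5.15 in Gadd45a-KO by label and 4.88 to 5.12 in WT. The level in the libraries labelled DKO thus lay within that of both groups with Ing1, and Ing1-KO lay below all 9 other libraries. Its median log2 fold change was 0.03 for Gadd45a-KO against WT. No mitosis gene passed without DKO replicate 1, DKO replicate 2, Ing1-KO replicate 1 or Ing1-KO replicate 2, and 8 passed without the filter on low counts, while the list's median stayed between 0.31 and 0.46 when each of the 12 libraries was left out in turn. With an adipocyte score as covariate it was 0.18, with none called. Of all tested genes, the fits without those libraries called 0.0366%, 0.853%, 1.89% and 0.0733%, in the order given. The shares were 4.56% without the filter and 0.0186% with the score. Macrophage transcripts, described further on, were higher in the same libraries; their part in the mitosis values was not tested.

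**Figure D1:**
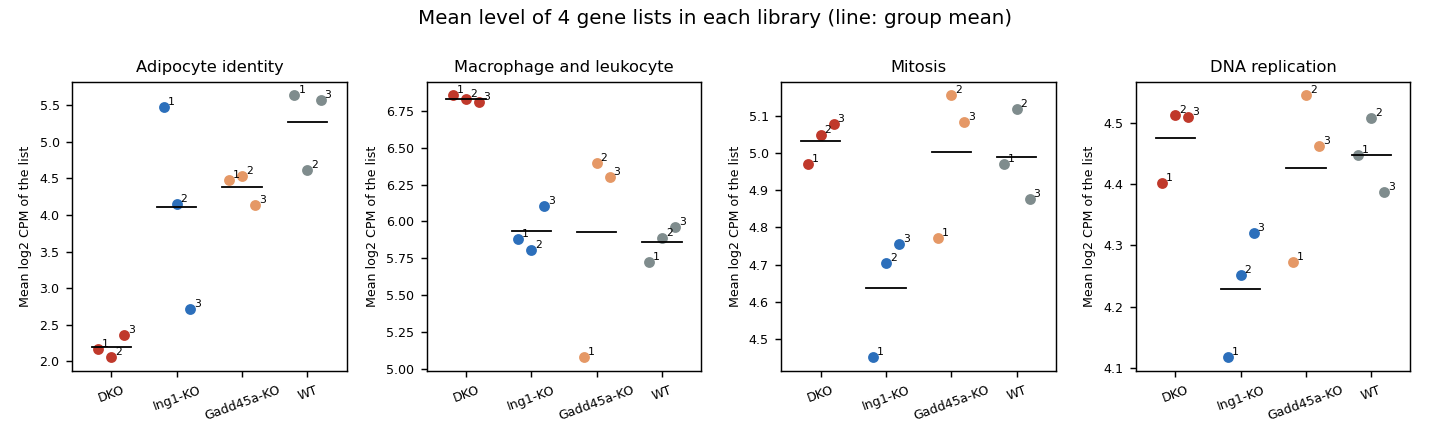
Mean log2 CPM of 4 gene lists (vertical axes, not starting at 0) in each library, by group; points are libraries numbered by replicate and lines are group means. The 3 libraries labelled DKO lie above every Ing1-KO library for mitosis, DNA replication and macrophage genes and below each of them for adipocyte genes, where Ing1-KO runs between 2.71 and 5.47.

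Fat-cell genes were lower in the libraries labelled DKO. Of 34 tested genes of adipocyte identity and lipid droplets 18 fell and none rose (52.9% called), with a median log2 fold change of -2.33; 33 were negative, and in 24 every library labelled DKO lay below every Ing1-KO library, which 16.8% of all genes showed. The libraries labelled DKO were uniformly low, whereas Ing1-KO replicates 1, 2 and 3 stood far apart, with list means of 5.47, 4.15 and 2.71 log2 CPM beside 2.16, 2.05 and 2.36 in those labelled DKO. In bulk RNA, fewer fat cells and less of these transcripts per fat cell cannot be told apart.

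Fabp4, the fatty acid binding protein of fat cells, was at 68.7, 68.6 and 78.9 CPM in the libraries labelled DKO, against 1219, 406 and 98.8 CPM in Ing1-KO. Ing1-KO replicate 3 was thus close to the libraries labelled DKO, though above each of them, and the log2 fold change was -2.99 ± 0.706 (SE; adjusted p = 0.0303). Adipoq, which encodes the hormone adiponectin, was at 3.12, 3.11 and 5.73 CPM in the libraries labelled DKO, against 146, 44.0 and 9.14 CPM in Ing1-KO (-4.05, adjusted p = 0.0254). Plin1 and Cidec, proteins of the lipid droplet surface, had log2 fold changes of -3.96 and -4.05 (adjusted p = 0.0258 and 0.0254), and Gpd1, which makes the glycerol backbone of triglyceride, one of -4.29 (adjusted p = 0.0253). Pck1, a glyceroneogenic enzyme, and Mrap, the accessory protein of the ACTH receptor, fell as far (-4.22 and -4.18). The same order of Ing1-KO replicates, 1 above 2 above 3, held in each of these genes.

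As a list the regulators upstream moved less, with a median log2 fold change of -0.24. Pparg itself was near the adipocyte list's median of -2.33. Pparg, the transcription factor at the head of adipogenesis, was at 1.74, 1.94 and 2.48 CPM in the libraries labelled DKO, against 18.7, 7.79 and 2.27 CPM in Ing1-KO. DKO replicate 3 lay above Ing1-KO replicate 3, so the groups overlapped although the test was passed (-2.22, adjusted p = 0.0468). Cebpa, its partner, was at 21.9, 21.6 and 22.3 CPM in the libraries labelled DKO and 49.95, 24.8 and 18.3 CPM in Ing1-KO (-0.50, adjusted p = 0.322). Of the early factors Cebpb was at -0.07 (adjusted p = 0.348), and Cebpd fell by 0.39 (adjusted p = 0.0477). Dlk1, the preadipocyte antigen PREF-1, was at 91.6, 104 and 122 CPM in the libraries labelled DKO and 175, 112 and 79.4 CPM in Ing1-KO (-0.21, adjusted p = 0.63). Among 28 regulators 9 fell and 3 rose (42.9%), and the falls included both promoters and inhibitors of adipogenesis. Gata2, a factor that holds preadipocytes back, was at 1.10, 1.02 and 1.65 CPM in the libraries labelled DKO, against 4.95, 5.15 and 2.00 CPM in Ing1-KO (-1.67, adjusted p = 0.0254). Sox9 fell by 0.75 and Klf6 rose by 0.21.

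In lipid metabolism the share of called genes differed between lists, from 7.69% to 25%, and most members of each list were negative. Scd1, the desaturase that makes oleate, was at 156, 136 and 198 CPM in the libraries labelled DKO, against 2689, 958 and 276 CPM in Ing1-KO (-3.00 ± 0.655 SE, adjusted p = 0.0254). With it fell Acsl1, an acyl-CoA synthetase (-2.66), and the fatty acid elongases Elovl3 (-4.10) and Elovl6 (-0.35), and 6 of 26 fatty acid synthesis genes fell in all with none higher (23.1%, median -0.29). Of 20 tested triglyceride genes 4 fell and 1 rose (25%, median -0.61), the rise being that of Lpin2, a phosphatidate phosphatase, by 0.37. Fatty acid oxidation had 2 falls among 26 genes, Etfb and Acaa1a, a share of 7.69%, below that of all genes, although the median was -0.52. Of 24 cholesterol synthesis genes 3 fell, Tm7sf2, Mvk and Hsd17b7 (12.5%, median -0.19).

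Of 39 nuclear genes of oxidative phosphorylation 6 fell and none rose (15.4%, median -0.17). Ndufv1, a subunit of complex I, was at 49.1, 53.6 and 49.96 CPM in the libraries labelled DKO, against 74.4, 63.1 and 61.0 CPM in Ing1-KO (-0.38, adjusted p = 0.0272). Mitochondrially encoded genes took 1.83%, 1.63% and 1.53% of gene reads in the libraries labelled DKO and 2.07%, 1.91% and 1.70% in Ing1-KO, an overlap.

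No adipocyte gene passed without DKO replicate 1, DKO replicate 2, Ing1-KO replicate 1 or Ing1-KO replicate 2, and 4 passed without DKO replicate 3. None passed with limma-voom or when only the 6 compared libraries were fitted. Without the filter on low counts 1 passed, and 9 did with the replicate number as a block. Of all tested genes these fits called 9.49%, 7.84%, 4.56% and 8.32%, and the fit without DKO replicate 3 called 9.05%. The list's median ran between -2.79 and -1.32 over the 12 fits, the smallest fall being without Ing1-KO replicate 1. For Gadd45a-KO against WT, groups that share no library with these, the same list had a median of -1.02.

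**Figure D2:**
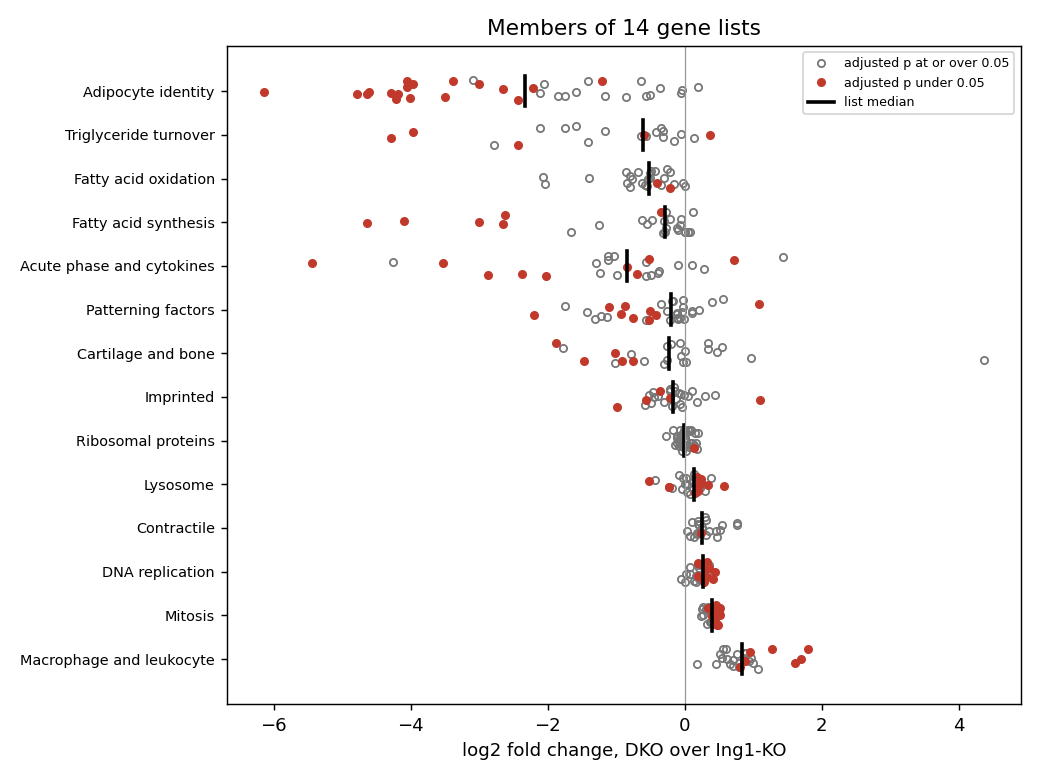
log2 fold change of each tested member, DKO over Ing1-KO, for 14 gene lists; filled points have an edgeR adjusted p under 0.05, open points do not, and bars are list medians. Adipocyte genes spread widely below 0 around a median of -2.33, whereas mitosis genes lie close together around 0.41 and macrophage genes around 0.83.

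Genes of macrophages were higher in the libraries labelled DKO. Of 31 listed markers of macrophages and other leukocytes 28 were tested, of which 7 rose and none fell (25%). All 28 were positive with a median log2 fold change of 0.83. In 27 the libraries labelled DKO lay above all Ing1-KO libraries, which 17.4% of all tested genes showed. The summed level was 9690 to 10272 CPM in the libraries labelled DKO and 5070 to 5900 CPM in Ing1-KO, with 2765 to 7909 CPM in Gadd45a-KO and 5038 to 5809 CPM in WT. The T cell marker Cd3e had no read in any of the 6 libraries and the B cell marker Cd79a at most 0.301 CPM, while the markers with many reads are those of myeloid cells. Ptprc, the leukocyte antigen CD45, was at 138, 133 and 132 CPM in the libraries labelled DKO, against 73.1, 74.5 and 83.3 CPM in Ing1-KO (0.81 ± 0.202 SE, adjusted p = 0.0357). Csf1r, the receptor on which macrophages depend, rose by 0.88 (adjusted p = 0.0451). Adgre1, the antigen F4/80, was at 583, 594 and 585 CPM in the libraries labelled DKO and 417, 327 and 334 CPM in Ing1-KO, without passing (adjusted p = 0.118). No marker passed without DKO replicate 1, DKO replicate 2, Ing1-KO replicate 1 or Ing1-KO replicate 2, and 25 passed without Gadd45a-KO replicate 1, where these markers were lowest, while the median stayed between 0.79 and 0.89 in all of the fits that omitted 1 library. None passed without the filter on low counts, 18 with DESeq2 and 22 when only the 6 compared libraries were fitted. Of all tested genes these fits called 4.56%, 18.1% and 7.84%, and the fit without Gadd45a-KO replicate 1 called 17.4%.

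Within this group some genes rose further than the common shift. Fcrls, a macrophage and microglia receptor of the mouse, was at 330, 276 and 286 CPM in the libraries labelled DKO, against 46.5, 72.5 and 154 CPM in Ing1-KO. Its log2 fold change was 1.70 ± 0.399 (SE, adjusted p = 0.0301), and Ing1-KO replicate 3 stood above the other two. The same order of the Ing1-KO libraries was found for Cxcr4, the receptor of CXCL12, at 24.8, 24.6 and 20.3 CPM in the libraries labelled DKO, against 4.39, 5.51 and 12.9 CPM in Ing1-KO (1.61, adjusted p = 0.045), and for Aif1, which encodes IBA1 (1.28, adjusted p = 0.0375). The scavenger receptor Cd163 rose by 1.80 (adjusted p = 0.0326) at no more than 4.98 CPM. Among the 12 largest rises taken by the rule for named genes, Gpr34, P2ry13, Clec4n, Cd300a and Entpd1, which are not in the marker list, encode surface proteins known among other places from myeloid cells, and rose by 1.88, 1.66, 1.58, 1.30 and 1.58, with edgeR adjusted p-values between 0.0286 and 0.0489. Npl, a sialic acid lyase, Hpgd, which inactivates prostaglandins, Ankrd1, a target of YAP, and Abcg3, an ABC transporter, rose by 1.68, 1.64, 1.39 and 1.34.

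Lysosomal genes went partly the same way, with 8 of 32 higher and 3 lower (34.4%, median 0.13). Lipa, the acid lipase, was at 260, 255 and 257 CPM in the libraries labelled DKO, against 215, 194 and 203 CPM in Ing1-KO (0.34, adjusted p = 0.015). Scarb2, a lysosomal membrane protein, rose by 0.25, whereas Ctsk, the collagen-cleaving cathepsin K, fell by 0.52, at 147, 163 and 194 CPM in the libraries labelled DKO and 244, 247 and 235 CPM in Ing1-KO (adjusted p = 0.0149). The part of macrophage transcripts in these changes was not tested.

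The 16 fibroblast markers had no call and a summed level of 51795 to 54840 CPM in the libraries labelled DKO and 50182 to 57833 CPM in Ing1-KO. Neural, epithelial and skeletal muscle markers (11, 5 and 7 tested) had no call, and erythroid markers summed to at most 0.289 CPM in the libraries labelled DKO and 0.423 CPM in Ing1-KO, with none tested. Of 10 tested endothelial genes 2 rose and 1 fell (30%), and their summed level was 251 to 337 CPM in the libraries labelled DKO and 168 to 220 CPM in Ing1-KO. Most of it was Flt1, a VEGF receptor, which rose, at 265, 299 and 214 CPM in the libraries labelled DKO against 126, 125 and 180 CPM in Ing1-KO (0.85, adjusted p = 0.0169). Pecam1 rose and Tek fell, both at a few CPM or less, while Cldn5, Robo4 and Sox17 had no read in any of the 6. All 23 contractile genes were positive with a median of 0.25, but only Tpm4, a tropomyosin, passed (4.35%), and Acta2, smooth muscle actin, overlapped at 4523, 4949 and 3447 CPM in the libraries labelled DKO and 2696, 3431 and 4008 CPM in Ing1-KO (adjusted p = 0.157). Without DKO replicate 3, 12 of them passed, beside 9.05% of all tested genes.

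Cartilage and matrix genes were lower in part. Of 24 cartilage and bone markers 5 fell and none rose (20.8%, median -0.22). Comp, a cartilage matrix protein, was at 5.96, 4.70 and 6.11 CPM in the libraries labelled DKO, against 33.6, 20.1 and 8.16 CPM in Ing1-KO (-1.88, adjusted p = 0.0266). Matn4 and Prg4, which encodes lubricin, fell (-1.46 and -1.01), but Acan, the cartilage proteoglycan, overlapped (-0.78, adjusted p = 0.249). Among 26 collagens 5 fell and none rose (19.2%, beside 12% of all genes), with Col18a1 at -0.45 and Col6a2 at -0.24. Mmp2, the gelatinase of fibroblasts, was at 364, 345 and 337 CPM in the libraries labelled DKO, against 633, 557 and 445 CPM in Ing1-KO, and fell by 0.64 (SE 0.101, adjusted p = 0.0128). Efemp1, a fibulin, fell by 1.00, while Adam19 and Mfap4 rose by 0.33 and 0.28.

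Imprinted genes, expressed from a single parental allele in at least some tissues, had 4 falls and 1 rise among 28 (17.9%, median -0.17). Mest was at 104, 83.6 and 85.6 CPM in the libraries labelled DKO, against 197, 213 and 130 CPM in Ing1-KO. The groups did not overlap, and it fell by 0.98 (SE 0.194, adjusted p = 0.0213); the mean was 56.0 CPM in Gadd45a-KO and 44.3 CPM in WT, below both. Ndn and Meg3 fell less (-0.36 and -0.21). The rise was that of Gatm, the enzyme that makes the creatine precursor, at 12.8, 12.8 and 12.6 CPM in the libraries labelled DKO and 4.87, 5.30 and 7.67 CPM in Ing1-KO (1.10, adjusted p = 0.0188).

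Patterning factors, which lay down position in the embryo, had 8 falls and 1 rise among 34 (26.5%, median -0.20). Barx1, a homeobox factor of jaw and stomach, was at 0.352, 0.199 and 0.516 CPM in the libraries labelled DKO, against 1.78, 1.76 and 1.42 CPM in Ing1-KO (-2.20 ± 0.324 SE, adjusted p = 0.0117). Pax9, a factor of teeth and pharyngeal pouches, and Prrx2, of limb and face mesenchyme, fell by less (-0.93 and -0.41, adjusted p = 0.0221 and 0.0149). The rise was that of Alx4, a limb and skull factor, by 1.09 (adjusted p = 0.0351). Of 35 Hox genes Hoxa5 and Hoxa7 fell (5.71%), and both lie within 20 Mb of Gadd45a.

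Signalling genes changed singly. Rspo2, which amplifies Wnt signals, was at 26.3, 25.5 and 28.9 CPM in the libraries labelled DKO, against 85.7, 75.8 and 37.6 CPM in Ing1-KO, and fell by 1.30 (SE 0.25, adjusted p = 0.0207). The Wnt receptor Fzd1 fell by 0.56 and Fzd5 rose by 0.28, among 4 falls and 1 rise in 36 genes (13.9%). In the TGF-β and BMP list of 38 genes 4 rose and 2 fell (15.8%). Tgfbr1, the type I receptor, was at 138, 140 and 133 CPM in the libraries labelled DKO, against 95.6, 98.0 and 114 CPM in Ing1-KO (0.42, adjusted p = 0.0117); the ligand Tgfb1 and the transducer Smad1 rose by 0.46 and 0.27, and Bmp6 fell by 1.55. Of 18 genes of the insulin-like growth factor axis 3 fell and 1 rose (22.2%). Irs1, the insulin receptor substrate, fell by 0.46, and Igf2bp3, which lies within 20 Mb of Gadd45a, rose by 0.23.

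Among 25 acute phase and cytokine genes 8 fell and 1 rose (36%, median -0.84). Hp, which encodes haptoglobin, was at 26.1, 31.4 and 27.1 CPM in the libraries labelled DKO, against 399, 184 and 37.5 CPM in Ing1-KO (-2.87, adjusted p = 0.0309), in the same order of Ing1-KO libraries as the adipocyte genes. Il1rn, the interleukin-1 receptor antagonist, fell by 0.84 (adjusted p = 0.0275). Of 24 chemokines 4 fell and 1 rose (20.8%): Ccl2 and Ccl7, which attract monocytes, fell (-0.30 and -0.31) as did Cxcl5 (-1.17), and Cxcl16 rose by 0.84. None of 33 interferon-stimulated genes passed.

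Further lists with a share below the 12% of all genes were ribosomal proteins (1 of 43 called, 2.33%), the unfolded protein response (2 of 26, 7.69%), demethylation and repair (2 of 24, 8.33%), glucocorticoid targets (2 of 20, 10%) and antioxidant genes (3 of 28, 10.7%), where Sod3, Gsta4 and Gstm2 fell (-0.79, -0.64 and -0.44). In demethylation and repair, the process in which GADD45A takes part, Neil3, a DNA glycosylase, rose by 0.58 (adjusted p = 0.047) and Ercc5, which encodes the nuclease XPG, fell by 0.19 (adjusted p = 0.0481). None of 19 genes of the ING and SIN3 complexes passed.

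**Figure D3:**
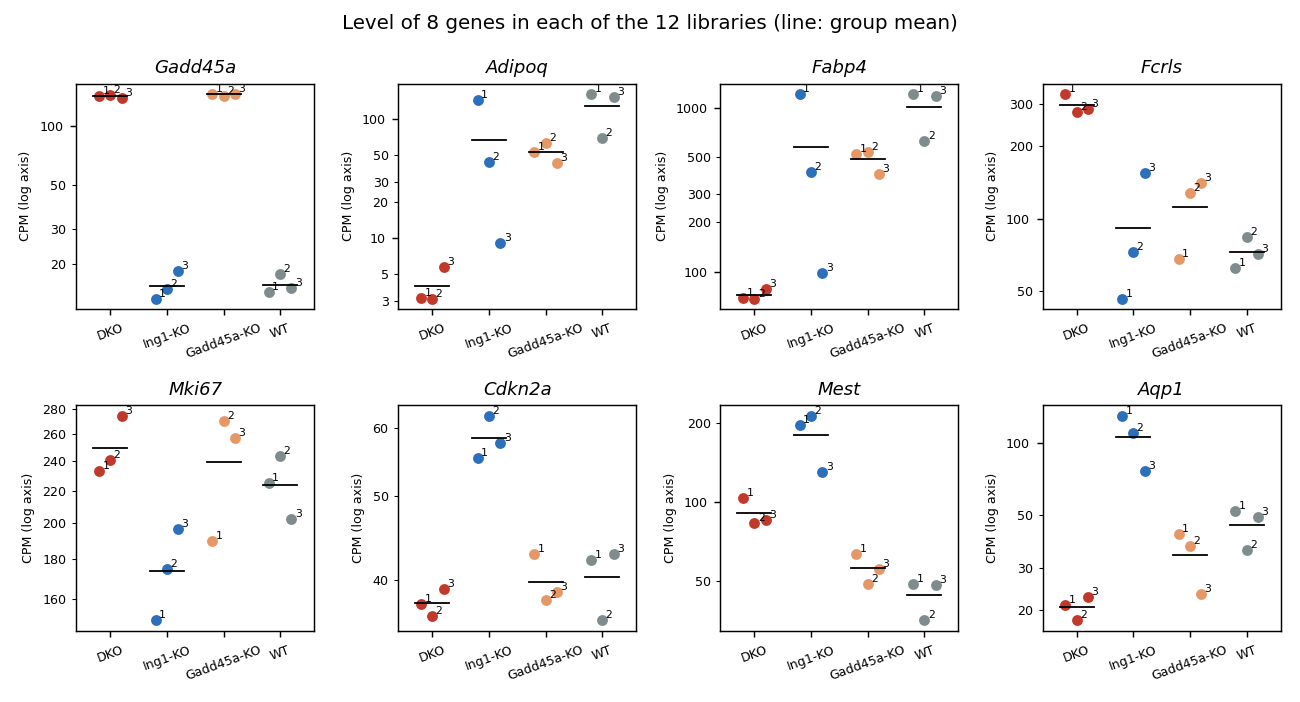
Level of 8 genes in CPM (log axes) in each of the 12 libraries, by group; points are libraries numbered by replicate and lines are group means. Gadd45a is at 138 to 142 CPM in the libraries labelled DKO and at 13.4 to 18.4 CPM in Ing1-KO, Fabp4 runs between 98.8 and 1219 CPM within Ing1-KO, and Cdkn2a is higher in Ing1-KO than in every other library.

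Whether the lesion acted differently with and without Ing1 was tested as the difference of the contrasts, DKO against Ing1-KO and Gadd45a-KO against WT. The contrast with Ing1 present called 2 genes (0.0124%), Gadd45a and E230016M11Rik. The difference called none by edgeR; 2195 genes (13.6%) had an unadjusted p under 0.05, and DESeq2 called 175. Without Ing1-KO replicate 3 it called 191 and without DKO replicate 3 it called 32. So the larger number of calls on the Ing1-KO background is not shown to be a larger effect. Signs agreed more often than not: of the 959 genes higher in the libraries labelled DKO 77.1% were also positive in Gadd45a-KO against WT, and of the 973 lower genes 70.9% were also negative, beside 61.7% of all tested genes. Genes are not independent of each other, so these shares carry no test. The median log2 fold change of these genes with Ing1 present was 0.05 for the higher and -0.06 for the lower ones. They were selected on the other contrast, which by itself favours smaller values here. How much of the difference comes from the selection was not tested.

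Called genes were frequent in the region of Gadd45a, mainly on the side of lower coordinates. On chromosome 6, within 20 Mb of Gadd45a in the later annotation, 47 of 217 tested genes were called (21.7%), 15 higher and 32 lower, beside 13.5% of the other tested genes of that chromosome and 8.72% of 149 genes within 20 Mb of Ing1 on chromosome 8, where both groups carry the same lesion by label. Of the 10 genes with the smallest adjusted p, 6 lie in the window, Gadd45a itself and the overlapping E230016M11Rik among them; counting Gadd45a, the window holds 1.35% of all tested genes. The calls lay mostly on the side of lower coordinates, with 34 of 108 (31.5%), against 13 of 109 (11.9%) on the other side. On the first side the share was 4 of 10 (40%) within 5 Mb, 5 of 13 (38.5%) between 5 and 10 Mb, 17 of 42 (40.5%) between 10 and 15 Mb and 8 of 43 (18.6%) between 15 and 20 Mb. The other side had 1 of 18 (5.56%) within 5 Mb, the overlapping E230016M11Rik, and 2 of 22 (9.09%) between 5 and 10 Mb. Farther out it had 1 of 5 (20%) and 9 of 64 (14.1%).

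The genes named here from this stretch were chosen after their values were seen. Aqp1, a water channel, was at 21.0, 18.1 and 22.5 CPM in the libraries labelled DKO, against 130, 110 and 76.4 CPM in Ing1-KO, and fell by 2.36 (SE 0.255, adjusted p = 0.00551). Pde1c, a cyclic nucleotide phosphodiesterase, was at 0.376, 0.353 and 0.536 CPM in the libraries labelled DKO, against 2.29, 1.84 and 2.23 CPM in Ing1-KO (-2.32, adjusted p = 0.00531). Adcyap1r1, the receptor of the neuropeptide PACAP, was at 1.74, 2.32 and 1.77 CPM in the libraries labelled DKO, against 7.30, 6.11 and 6.54 CPM in Ing1-KO (-1.77, adjusted p = 0.00531). In all of these the groups were apart, and the Ing1-KO libraries lay closer together than for the adipocyte genes. Ggct, a gamma-glutamyl cyclotransferase, and Nod1, a sensor of bacterial peptidoglycan, fell too (-1.30 and -0.96, adjusted p = 0.00551 and 0.0106).

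In the pair of groups with Ing1, Pde1c and Aqp1 had log2 fold changes nearer 0, but neither passed the test of the difference between contrasts. Pde1c averaged 1.54 CPM in those labelled Gadd45a-KO and 1.98 CPM in WT (-0.35), and Aqp1 33.9 and 45.4 CPM (-0.42). Of the genes in the window 1 was called in that pair, E230016M11Rik. The labels give 1 background strain for all groups; whether sequence beside the targeted allele differs between groups, and its part in these counts, was not tested.

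**Figure D4:**
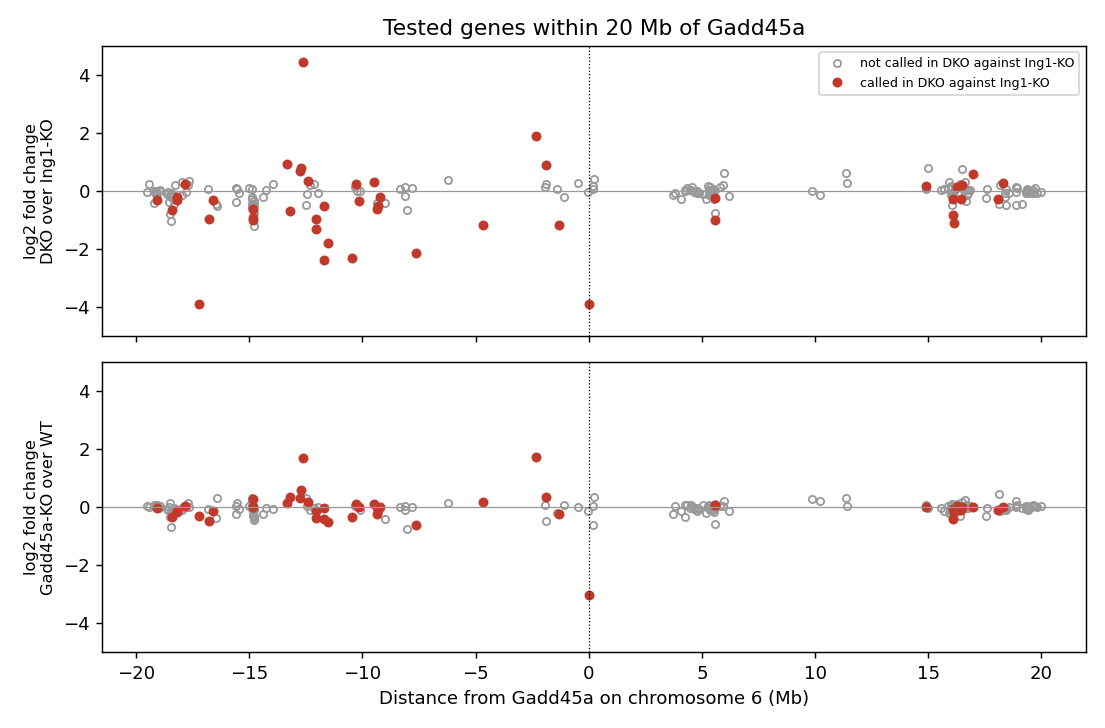
log2 fold change of each tested gene within 20 Mb of Gadd45a on chromosome 6, by distance in Mb (negative: lower coordinates), for DKO over Ing1-KO (upper panel) and Gadd45a-KO over WT (lower panel); filled points are genes called in DKO against Ing1-KO. Called genes are denser on the left, 34 of 108 against 13 of 109 on the right or overlapping Gadd45a. In the lower panel's contrast 1 gene of the window was called.

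Several of these neighbours passed also when libraries were left out. Of the 6 genes called without DKO replicate 1, 4 were Gadd45a, E230016M11Rik, Pde1c and Adcyap1r1, and the other two were Gnao1 and Aftph on chromosomes 8 and 11. The 12 genes called without Ing1-KO replicate 2 included these, Aqp1, Ggct and Cdkn2a. Pde1c and Adcyap1r1 passed whichever of the 12 libraries was left out, with adjusted p up to 0.0491, and Aqp1 and Ggct in 11 of these 12 fits. Of 127 called genes taken by the rule for named genes only Gadd45a and E230016M11Rik passed in every one, although all 127 kept their direction. With DKO replicate 2 left out 64 genes were higher and 76 lower; the numbers were 161 and 148 without Ing1-KO replicate 1, and 1400 and 1779 without Ing1-KO replicate 3, the library nearest to those labelled DKO. Leaving out libraries outside the comparison, which changes the genes tested and the shared estimate of spread, also moved the counts, with 1658 and 1187 without Gadd45a-KO replicate 1 and 545 and 523 without WT replicate 3.

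**Figure D5:**
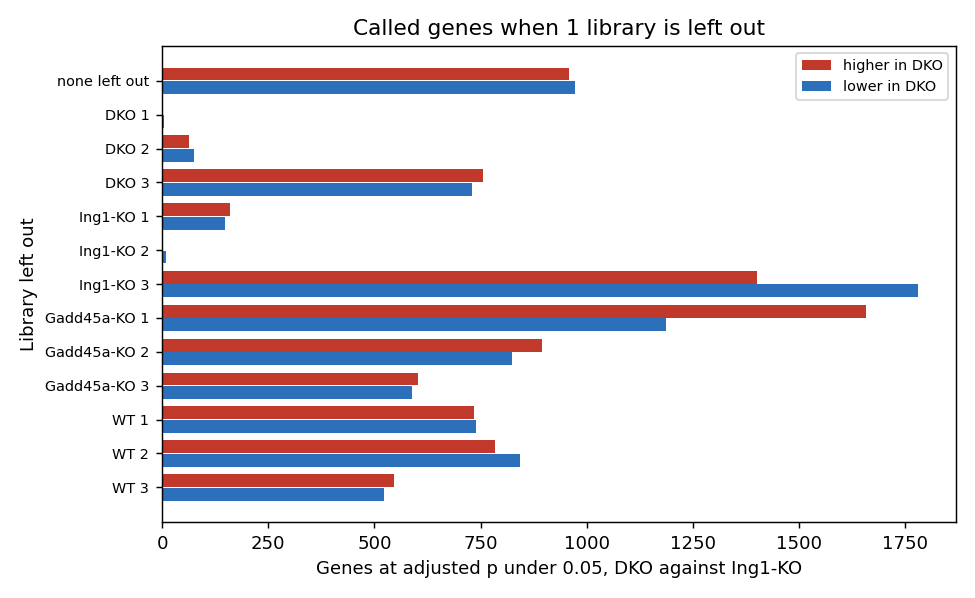
Number of genes at an edgeR adjusted p under 0.05 for DKO against Ing1-KO, higher (upper bar) and lower (lower bar), when each library named on the vertical axis is left out. The 959 and 973 genes of the complete fit shrink to 2 and 4 without DKO replicate 1 and to 3 and 9 without Ing1-KO replicate 2, and grow to 1400 and 1779 without Ing1-KO replicate 3.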

How the data were processed

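Reads per gene were counted in 12 poly(A) libraries, 3 for each label. The deposited files hold raw counts per Ensembl gene, in 37991 identifiers and 5 lines that name no gene; these lines hold 24.2% to 24.8% of each library and were left out. Per the submitters' processing notes, HTSeq 0.5.4, Bowtie2 2.1.0, TopHat2 2.0.9, DESeq and FastQC were used with builds NCBIM37 and mm9. How strand was counted is not given in the sources used here, so overlapping and antisense genes may share reads. Symbols (32919 matched), chromosomes and distances between genes came from a GENCODE annotation of the later build GRCm38, and promoters from RefSeq.

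The test was edgeR 4.0.16 in R 4.3.3 on the counts: TMM factors (0.986 to 1.01), filterByExpr by label (minimum count 10), robust dispersions (common biological coefficient of variation 0.105) and a quasi-likelihood fit of genotype means to all 12 libraries. A gene was called when its p, adjusted over 16163 genes by Benjamini-Hochberg, was under 0.05. The SE is the absolute log2 fold change over the square root of F. CPM use TMM-scaled library sizes. On simulated counts for DKO against Ing1-KO with 16163 genes, the test recovered 79.1% of 1.5-fold, 91.0% of 2-fold and 98.5% of 4-fold changes and made 9 false calls. Genes were drawn independently of each other, without the differences between replicates that many genes share. These rates therefore need not hold for the real comparison.

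Members and lists were chosen with earlier results of these data known. Named genes are the targets and 12 called genes each way, the largest by fold among those averaging 5 CPM or more with no overlap. To these come up to 4 called members per list with the smallest adjusted p. Added whatever their values were 20 genes of the adipocyte and cell cycle programmes, the Gadd45 and Ing families and cell type markers. Top2a, Csf1r, Adgre1, Cd3e, Cd79a, Cldn5, Robo4, Sox17, Alx4, Gnao1, Aftph and the neighbours of Gadd45a fall outside that rule and were picked after their values were seen. Alternatives were RLE and upper-quartile factors, other filters, DESeq2 1.42.0, limma-voom 3.58.1, a replicate block, fewer libraries, a fold minimum and an adipocyte score (average log2 CPM over adipocyte list genes) as covariate. Certain genes that rule yields are left unreported.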

Additional observations from a re-analysis of the deposited data

How the results depend on the processing

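Of the alternatives, RLE and upper-quartile factors, a mean of at least 5 CPM and limma-voom kept both counts within 1.5 times of the 959 higher and 973 lower genes, though limma-voom called no adipocyte gene. DESeq2 gave 1533 higher, no filter on low counts 590 and 593, and a fold of at least 2 gave 82 and 251; fitting the 6 compared libraries alone left 383 lower. Leaving out a library gave 2 to 1658 higher and 4 to 1779 lower genes. The adipocyte score, itself read from these libraries, left 2 and 1 as a covariate, and 4 named genes turned positive without passing: Acsl1 (0.14), Aldh1a7 (0.0653), Fabp4 (0.0496) and Pparg (0.23). The difference of the contrasts, with no gene called, gave 2 without a filter, 175 by DESeq2, 6 with the adipocyte score and 0 to 191 without a library. Labels share replicate numbers. The deviations of same-numbered DKO and Ing1-KO libraries correlated at -0.02, 0.03 and -0.14, and those of other pairs at -0.17 to 0.17. With 3 libraries per group these values cannot show whether the numbers stand for a shared embryo or batch. A replicate block gave 718 higher and 626 lower. The cause of these shifts was not tested. Leaving out the filter tested 25970 genes instead of 16163.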
